A study of Homo sapiens with 6 samples.

Results

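IFIH1, DDX58, TRIM22, IFITM1 and GBP2, interferon-inducible genes of RNA sensing and of defence against pathogens, were followed in A375 cells, an established human melanoma line. The members were the rows of the deposited count table with these gene names, 5 of 2778 features in all, and each name matched 1 row. The table covers cells that overexpress CYGB (CYGB-OE, n = 3 libraries, genotype CYGB-overexpression) and wild-type cells (WT, n = 3 libraries), all untreated, and the question of the series is how the 2 genotypes differ in their transcripts. CYGB is the gene of cytoglobin, a haem-binding globin. The labels name no vector, no empty-vector control and no clone, and they do not state whether replicate libraries were grown separately, so the spread behind each p-value is that of the libraries and may be technical.

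Cells recognise viral RNA in the cytoplasm through the helicases MDA5 (IFIH1) and RIG-I (DDX58, now also named RIGI). Both bind double-stranded RNA, MDA5 preferring long duplexes and RIG-I short ones with triphosphate ends, and both signal through the adaptor MAVS to kinases that switch on interferon genes. Secreted interferon then acts through JAK kinases and STAT factors on the interferon-stimulated response element (ISRE) and the gamma-activated site (GAS) of target promoters, and the sensors are themselves such targets. TRIM22, an E3 ubiquitin ligase that restricts viruses, IFITM1, a membrane protein that hinders viral entry, and GBP2, a guanylate-binding GTPase that acts on intracellular pathogens, are effectors of this response.

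Promoter sequences are shown because interferon acts on these genes through short promoter motifs. RefSeq windows (GRCh38.p14) from 250 bases before to 50 bases after the transcript start were matched for IFIH1, DDX58 (as RIGI) and IFITM1. The 250 bases before the start are printed on the gene's own strand, with the bases of motif matches in capitals. They span chr2:162318685-162318934 on the minus strand for IFIH1, chr9:32526197-32526446 on the minus strand for DDX58 and chr11:313790-314039 on the plus strand for IFITM1.
IFIH1: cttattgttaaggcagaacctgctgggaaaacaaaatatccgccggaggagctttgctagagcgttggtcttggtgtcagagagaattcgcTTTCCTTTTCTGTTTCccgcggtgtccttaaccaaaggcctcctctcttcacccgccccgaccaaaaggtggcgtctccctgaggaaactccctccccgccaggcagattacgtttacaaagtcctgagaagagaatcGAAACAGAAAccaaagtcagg
DDX58: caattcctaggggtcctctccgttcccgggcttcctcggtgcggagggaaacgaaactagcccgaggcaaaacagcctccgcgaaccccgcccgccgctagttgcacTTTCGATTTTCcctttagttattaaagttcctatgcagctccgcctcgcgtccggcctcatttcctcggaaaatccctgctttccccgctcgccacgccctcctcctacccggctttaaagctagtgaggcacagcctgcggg
IFITM1: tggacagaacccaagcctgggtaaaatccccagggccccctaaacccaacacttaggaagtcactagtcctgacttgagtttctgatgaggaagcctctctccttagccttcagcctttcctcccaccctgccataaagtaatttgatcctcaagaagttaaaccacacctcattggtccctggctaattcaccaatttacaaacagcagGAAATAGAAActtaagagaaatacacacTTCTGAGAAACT
The motifs searched on both strands were an ISRE core, GAAANNGAAA, a GAS core, TTCNNNGAA, and an ISRE form with a spacer of 3, GAAANNNGAAA, which was added after these sequences had been read. IFIH1 held the ISRE core at 3 positions, from -159 to -150 and from -153 to -144 on the opposite strand, which overlap each other, and from -21 to -12. The annotated start of GCA, a gene on the opposite strand, lies in the IFIH1 window at 162318840, close to the overlapping matches. These matches are thus not particular to IFIH1, and their part in either gene was not tested. DDX58 held the form with a spacer of 3 from -143 to -133 on the opposite strand. IFITM1 held the ISRE core from -40 to -31 and from -6 to +4, and a GAS core from -12 to -4 that overlaps the second of these. Over the 300-base windows of all 35116 RefSeq promoters, 3.57% held the ISRE core, 2.86% the form with a spacer of 3 and 7.66% the GAS core. TRIM22 and GBP2 are named only. A match is a run of letters and does not show that a factor binds there.

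**Figure D1:**
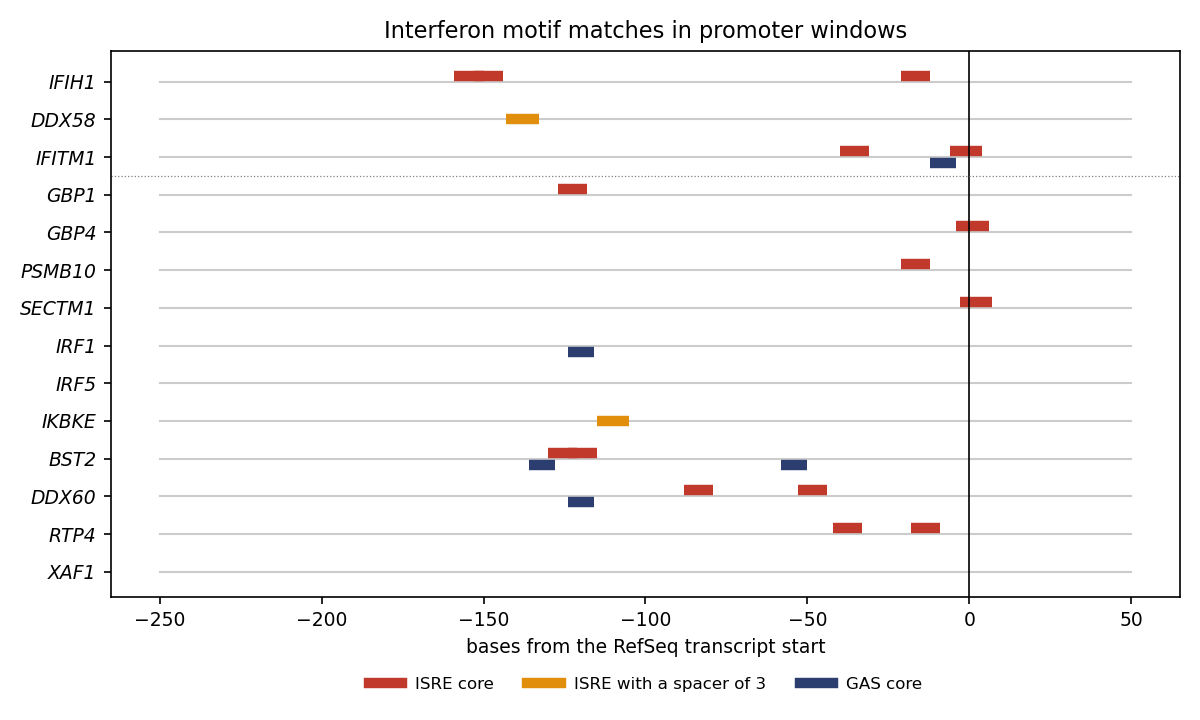
Positions of motif matches, in bases from the RefSeq transcript start, in the promoter windows of IFIH1, DDX58 and IFITM1 (above the dotted line) and of 11 other interferon genes of the table (below it). Each thin line is a window from 250 bases before to 50 bases after the start. Of the 3 windows above the line, 2 held the ISRE core, and 7 of the 11 below it did.

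The 6 columns of the table sum to 1533260 to 1897052 counts in the CYGB-OE libraries and to 2025159 to 2801576 in the WT libraries. These are sums over a selection and not library depths: with the level between the groups centred, the log2 ratios of group means left a gap from -0.995 to 0.995. The 5 genes are thus in the table because they differed between these very libraries, and the tests below are not independent evidence of one. CYGB, the check of the labels, had 22518, 20740 and 26267 counts in CYGB-OE replicates 1 to 3 and 33, 47 and 37 counts in WT replicates 1 to 3. CYGB-OE replicate 1 stood apart from the other two libraries of its group, with median absolute log2 differences of 0.432 and 0.443 per feature, while replicates 2 and 3 differed by 0.178 and pairs of WT libraries by 0.154 to 0.163. Of 13 markers of melanocytes and melanoma, 5 were in the table, TYRP1, DCT, S100A1, RAB38 and EDNRB. Their summed normalized counts were 2832 to 3317 in CYGB-OE and 6825 to 7466 in WT. Most of that sum was S100A1, averaging 2021 in CYGB-OE and 4361 in WT. MITF, PMEL, MLANA and SOX10 were not among the 5. DCT, which did not pass the filter, had 0 counts in CYGB-OE and 2, 13 and 15 in WT replicates 1 to 3. Of 18 lymphocyte and macrophage markers, 2 were in the table, with summed normalized counts of 269.9 to 412.6 in CYGB-OE and 239.5 to 269.4 in WT. That sum joins opposite changes: LYZ rose, averaging 289 in CYGB-OE and 51.3 in WT, and ITGAX fell, averaging 64.5 in CYGB-OE and 203 in WT. Of the fibroblast, endothelial and keratinocyte markers, 2 of 9, 2 of 7 and 1 of 7 were in the table. The collagen gene COL1A2 rose, with 34, 139 and 190 counts in CYGB-OE replicates 1 to 3 and 0, 4 and 2 in WT replicates 1 to 3, and COL3A1, which did not pass the filter, had 2 to 26 counts in CYGB-OE and 0 to 1 in WT. The endothelial receptors KDR and TIE1 fell, with 8 to 12 and 7 to 22 counts in CYGB-OE and 107 to 159 and 49 to 74 in WT, and the keratin KRT14 rose, with 57 to 62 counts in CYGB-OE and 13 to 26 in WT. The part of these markers in the results was not tested. In such bulk libraries, fewer cells with a transcript and less of it per cell cannot be told apart.

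With the level between the groups set by this gap, all 5 genes were lower in CYGB-OE than in WT. In each of them every CYGB-OE library then lay below every WT library. GBP2 fell most, to a mean of 0.169 of its WT level, and the other 4 genes fell to 0.349 (IFIH1), 0.41 (TRIM22), 0.413 (IFITM1) and 0.438 (DDX58) of theirs. All 5 passed the filter on low counts and the threshold, an adjusted p of 0.05 in edgeR's quasi-likelihood test with Benjamini-Hochberg adjustment over the table. Of all 2468 tested features, 70.9% were called lower and 99.8% in either direction, and in 70.1% of all 2778 features the CYGB-OE libraries lay entirely below the WT libraries. The count of 5 of 5 is read against those shares and shows nothing particular to these genes. Values are normalized counts, which are counts divided by library factors with a geometric mean of 1.

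IFIH1 (ENSG00000115267, GRCh38 chromosome 2, 162267079 to 162318703, minus strand) was read with 228, 165 and 205 counts in CYGB-OE replicates 1 to 3 and with 526, 699 and 591 in WT replicates 1 to 3. Its normalized counts were 243, 184 and 186 in CYGB-OE and 578, 552 and 628 in WT, so CYGB-OE replicate 1 was the highest of its group and the groups did not overlap. The mean was 205 ± 33.5 in CYGB-OE and 586 ± 38.4 in WT (SD, n = 3 each). The log2 fold change, CYGB-OE over WT, was -1.52 with an SE of 0.15 (edgeR adjusted p = 2.80e-05).

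DDX58 (ENSG00000107201, chromosome 9, 32455705 to 32526324, minus strand), the second RNA sensor, had 178, 136 and 182 counts in CYGB-OE replicates 1 to 3 and 339, 487 and 376 in WT replicates 1 to 3. Its normalized counts were 189.9, 152 and 165 in CYGB-OE and 373, 385 and 399.6 in WT. The WT libraries lay within a coefficient of variation of 3.48%, the CYGB-OE libraries within 11.4%, again with replicate 1 highest. The log2 fold change was -1.19 (SE 0.14; edgeR adjusted p = 8.09e-05), the smallest of the 5.

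TRIM22 (ENSG00000132274, chromosome 11, 5689689 to 5737089, plus strand) had the lowest counts of the 5 genes, 37, 22 and 36 in CYGB-OE replicates 1 to 3 and 62, 113 and 74 in WT replicates 1 to 3. Normalized, these were 39.5, 24.6 and 32.7 in CYGB-OE and 68.2, 89.3 and 78.6 in WT, with coefficients of variation of 23.1% in CYGB-OE and 13.4% in WT. The log2 fold change was -1.29 (SE 0.25; edgeR adjusted p = 0.0012). It is the least precise of the 5, and its groups still did not overlap.

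IFITM1 (ENSG00000185885, chromosome 11, 313506 to 315272, plus strand) had 83, 85 and 113 counts in CYGB-OE replicates 1 to 3 and 219, 324 and 184 in WT replicates 1 to 3. Its normalized counts were 88.5, 94.9 and 103 in CYGB-OE and 241, 256 and 196 in WT. Here the WT libraries spread more than the CYGB-OE libraries, and CYGB-OE replicate 1 was the lowest of its group. The log2 fold change was -1.27 (SE 0.17; edgeR adjusted p = 0.000154).

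GBP2 (ENSG00000162645, chromosome 1, 89106132 to 89150456, minus strand) was the most abundant of the 5, with 822, 677 and 859 counts in CYGB-OE replicates 1 to 3 and 4394, 5817 and 4539 in WT replicates 1 to 3. Its normalized counts were 877, 756 and 781 in CYGB-OE and 4832, 4597 and 4824 in WT, a wide gap beside the spread within either group. The mean was 804 ± 63.8 in CYGB-OE and 4751 ± 133 in WT (SD, n = 3 each). The log2 fold change, CYGB-OE over WT, was -2.56 with an SE of 0.10 (edgeR adjusted p = 9.46e-07).

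**Figure D2:**
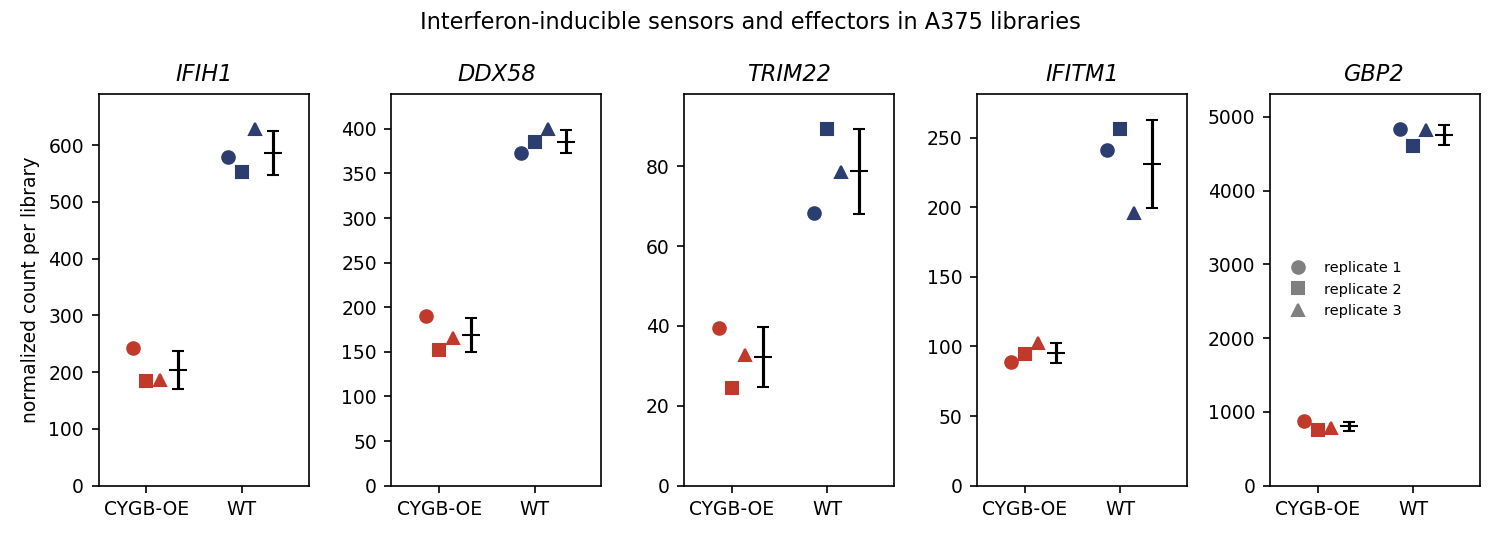
Normalized counts of the 5 genes in each library (vertical axes from 0, one scale per gene), with CYGB-OE libraries in red and WT libraries in blue; symbols mark the replicate, and bars the mean ± SD over 3 libraries. In every panel the 3 CYGB-OE libraries lie below the 3 WT libraries, and the gap is widest for GBP2, at 804 ± 63.8 in CYGB-OE and 4751 ± 133 in WT.

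CYGB-OE replicate 1, the library that stood apart, held the highest CYGB-OE value of IFIH1, DDX58, TRIM22 and GBP2, which is 4 of 5 genes, against 34.7% of the 1749 features called lower. Without it the log2 fold changes were -1.66 for IFIH1, -1.28 for DDX58, -1.45 for TRIM22, -1.22 for IFITM1 and -2.63 for GBP2, and all 5 calls held. Leaving out each of the other libraries also kept the 5 calls. The fits without 1 library reused the factors set with all 6 libraries and called 1761 to 1840 features lower in all. The kept calls thus show nothing particular to these genes.

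The level set between the groups decides the size of these differences, and for some of the 5 genes also the call or the sign. The table holds selected features, so the middle of its empty band was set to a log2 ratio of 0. That assumes a selection cut at the same fold in both directions, which is not known. TMM scaling over the table, which assumes that most features are unchanged, raises the median over all tested features by 1.20. Under it, GBP2 alone of the 5 stayed lower past the threshold, at a log2 fold change of -1.36 (edgeR adjusted p = 6.14e-06). IFIH1 then had -0.32, TRIM22 -0.09 and IFITM1 -0.08, and DDX58 turned to 0.01. Of all tested features, 19.4% were called lower under that scaling and 55.7% lay below 0. The median log2 fold change of the 5 genes was -1.29 with the band's level, as was that of all tested features.

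GBP2 stood further down the table than the others. Of the tested features, 9.81% had a lower log2 fold change than GBP2, against 37.4% for IFIH1, 50.1% for TRIM22, 50.9% for IFITM1 and 56.1% for DDX58. IFIH1 thus lay in the lower part of the table, and TRIM22, IFITM1 and DDX58 near its middle. By abundance, 96.9% of tested features had a lower WT level than GBP2, and 45.9% had a lower one than TRIM22.

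**Figure D3:**
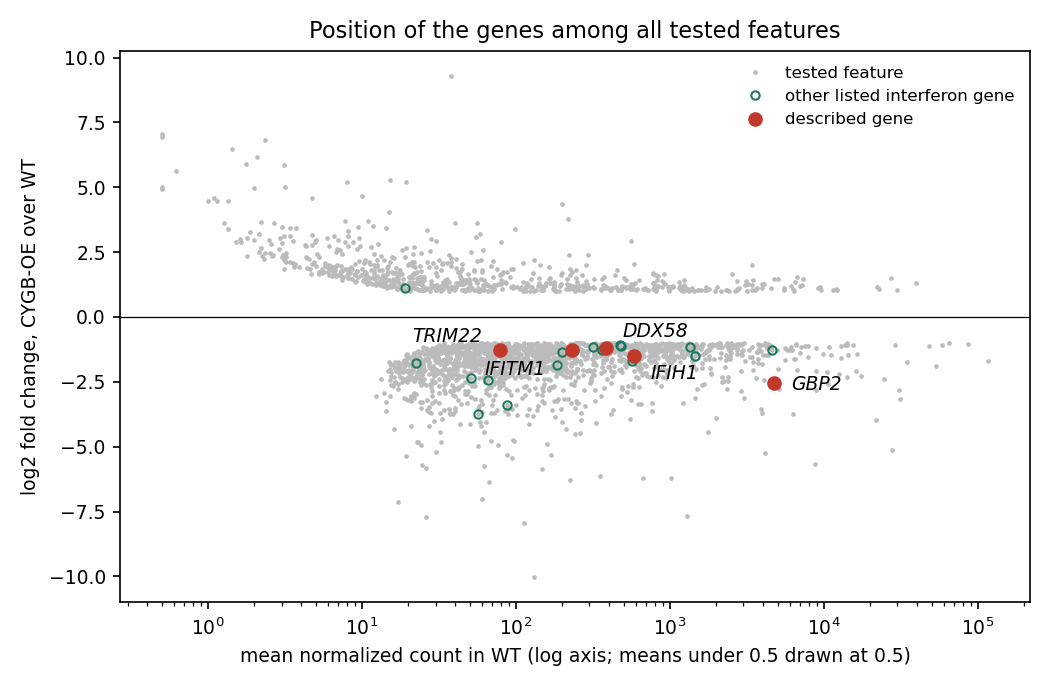
Log2 fold change, CYGB-OE over WT, against the mean normalized count in WT (log axis) for all tested features in grey, the 5 genes in red and other listed interferon genes in green. The empty band around 0 is the selection of the table; GBP2, at a log2 fold change of -2.56, lies below the other 4 red points, which sit between -1.52 and -1.19.

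Ratios of 2 genes within a library do not depend on the scaling between libraries. GBP2 had 3.61, 4.10 and 4.19 counts per count of IFIH1 in CYGB-OE replicates 1 to 3, against 8.35, 8.32 and 7.68 in WT replicates 1 to 3. Per count of DDX58 it had 4.62, 4.98 and 4.72 in CYGB-OE and 13.0, 11.9 and 12.1 in WT. GBP2 was thus lower relative to both sensors in every CYGB-OE library, with CYGB-OE minus WT differences of the mean log2 ratio of -1.04 and -1.37. Relative to TRIM22 and IFITM1 the CYGB-OE minus WT difference of the log2 ratio was -1.26 and -1.30, also without overlap.

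Between the sensors, IFIH1 had 1.28, 1.21 and 1.13 counts per count of DDX58 in CYGB-OE replicates 1 to 3, against 1.55, 1.44 and 1.57 in WT replicates 1 to 3. That difference was smaller, at -0.33 on the log2 scale, and the groups did not overlap. The other 5 of 10 pairs overlapped between the groups. An exact two-sided permutation test gave p = 0.1 for each of the 5 pairs without overlap, the smallest that 3 against 3 libraries allow, and 0.2 after Benjamini-Hochberg adjustment over the 10 pairs. Among all pairs of called-lower features with no count of 0, 35.6% did not overlap.

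**Figure D4:**
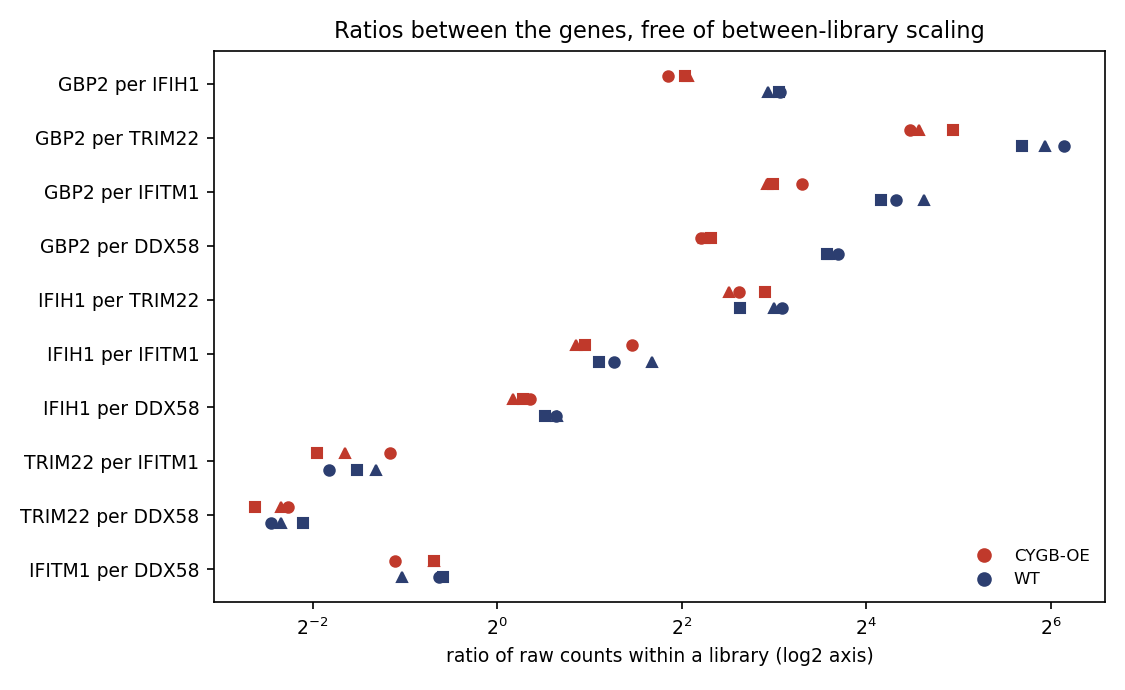
Ratios of raw counts between pairs of the 5 genes within each library (log2 axis), with CYGB-OE libraries in red above WT libraries in blue and symbols for the replicates as before. The 4 ratios of GBP2 to the other genes lie lower in all 3 CYGB-OE libraries, as does IFIH1 per DDX58; the other 5 pairs overlap.

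Per kilobase of exon, a scale on which levels of different genes can be set side by side, the order was the same in both groups. Normalized counts per kilobase averaged 128 in CYGB-OE and 757 in WT for GBP2, and 88.3 in CYGB-OE and 214 in WT for IFITM1. IFIH1 averaged 40.1 in CYGB-OE and 115 in WT, DDX58 38.8 in CYGB-OE and 88.6 in WT, and TRIM22 5.36 in CYGB-OE and 13.1 in WT. The libraries of neighbours in this order did not overlap, except for IFIH1, at 36.1 to 47.6 in CYGB-OE, and DDX58, at 34.9 to 43.6 in CYGB-OE. Exon lengths were those of all annotated transcripts merged, which span 1.08 kilobases for IFITM1 and 4.35 to 6.28 for the other 4 genes.

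Parts of 3 genes share sequence with others. In GENCODE release 29, 32.5% of the exon bases of IFITM1 also belong to IFITM2, 9.90% of those of GBP2 to GBP7 and 10.7% of those of TRIM22 to OR56B1, all on the same strand. Of the 50-base windows in the transcripts, 32.0% of IFITM1, 10.2% of GBP2, 13.4% of TRIM22 and 0 of 5150 in IFIH1 and 0 of 4351 in DDX58 recurred in transcripts of other genes. The labels do not say how the authors' counting treated such reads, so the counts of IFITM1 in particular are uncertain. IFITM2, GBP7 and OR56B1 were not analysed here.

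The wider interferon pathway was read from lists of 169 further genes, of which 17 were in the table and 16 passed the filter. Of these 15 fell and 1 rose, with a median log2 fold change of -1.44, against 70.9% lower, 28.9% higher and a median of -1.29 over all tested features. With TMM scaling, 11 of the 16 stayed below 0 and 5 stayed lower past the threshold. Adjusted over all 58780 annotated genes, all 5 of IFIH1, DDX58, TRIM22, IFITM1 and GBP2 kept their call and 13 of the 15 did. Of all 1749 features called lower, 1340 kept their call, which is 54.3% of the tested features.

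By role, the table held 1 further gene from the list of RNA sensors and related genes, beside IFIH1 and DDX58. OASL, an OAS-like protein known to enhance RIG-I signalling, was the 1 gene that rose, at 49, 31 and 42 counts in CYGB-OE replicates 1 to 3 and 18, 27 and 15 in WT replicates 1 to 3 (edgeR adjusted p = 0.00451; log2 fold change 1.12, SE 0.29). Its call was lost when adjusted over all annotated genes (adjusted p = 0.107). Of 20 adaptors and kinases of sensor signalling, the table held IKBKE, a kinase that activates interferon regulatory factors, at a log2 fold change of -1.15, or 0.06 with TMM scaling. None of 7 DNA sensors, 10 interferon ligands, 12 receptor and JAK-STAT genes and 8 inhibitors of the response was among its rows. As the table is a selection, such absence does not tell a gene without transcripts from one that differed less.

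Of 12 interferon regulatory factors and partners, IRF1 and IRF5 were tested. IRF1, which activates many interferon targets, had 768, 337 and 386 counts in CYGB-OE replicates 1 to 3 and 1382, 1770 and 1377 in WT replicates 1 to 3. CYGB-OE replicate 1 was again the highest of its group, with more than the other two libraries together; without it the log2 fold change was -2.01. Its log2 fold change was -1.50 (SE 0.33; edgeR adjusted p = 0.00329), and the call was lost when adjusted over all annotated genes (adjusted p = 0.0783). IRF5, another activator, fell with a log2 fold change of -1.84. With TMM scaling IRF1 lay at -0.30 and IRF5 at -0.64, and only IRF5 stayed past the threshold.

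All 7 type I interferon effectors in the table, of 45 listed, fell, beside 70.9% called lower over all tested features. SLFN5, a member of the Schlafen family, averaged 1878 ± 135 normalized counts in CYGB-OE and 4602 ± 214 in WT (SD, n = 3 each; log2 fold change -1.29). LAMP3 and RTP4, a lysosomal membrane protein and a receptor chaperone, had the largest falls, at log2 fold changes of -3.40 and -2.35, from low counts. XAF1, a pro-apoptotic protein, had a log2 fold change of -1.79 and UBA7, the activating enzyme of ISG15 conjugation, of -1.28. With TMM scaling, SLFN5 lay at -0.09, UBA7 at -0.08, XAF1 at -0.61, RTP4 at -1.16 and LAMP3 at -2.20. DDX60, a helicase linked to RIG-I signalling, had -1.17, and BST2, the tetherin that holds budding virions, had -1.12; both turned above 0 under TMM over the table, to 0.02 and 0.08. The BST2 call was lost when adjusted over all annotated genes (adjusted p = 0.095), and its CYGB-OE libraries were uneven, at 115, 242 and 292 counts in replicates 1 to 3.

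The 3 listed interferon gamma effectors in the table, of 22, also fell, beside the same share of 70.9%. RARRES3, a phospholipase, had a log2 fold change of -2.45, SECTM1, a secreted and membrane protein, of -1.69, and PSMB10, an immunoproteasome subunit, of -1.37. With TMM scaling RARRES3 lay at -1.25, SECTM1 at -0.49 and PSMB10 at -0.17, and RARRES3 alone of the 3 stayed past the threshold. RARRES3 had low counts, 7, 12 and 16 in CYGB-OE replicates 1 to 3. Within families, IFITM1 was the 1 of 5 IFITM genes in the table and TRIM22 the 1 of 11 listed TRIM names.

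GBP2 was accompanied by 2 paralogues, so that 3 of 7 GBP genes were in the table. All 3 fell, beside 70.9% called lower over all tested features. GBP1 had 227, 198 and 238 counts in CYGB-OE replicates 1 to 3 and 430, 579 and 462 in WT replicates 1 to 3, with a log2 fold change of -1.06 that turned to 0.14 under TMM over the table. GBP4 had 8, 0 and 4 counts in CYGB-OE and 50, 89 and 41 in WT, with a log2 fold change of -3.75 (SE 0.59). Without CYGB-OE replicate 1 the GBP4 value was -4.75. They lie in 1 cluster on chromosome 1, with GBP4 30692 bases and GBP1 40772 bases from GBP2.

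**Figure D5:**
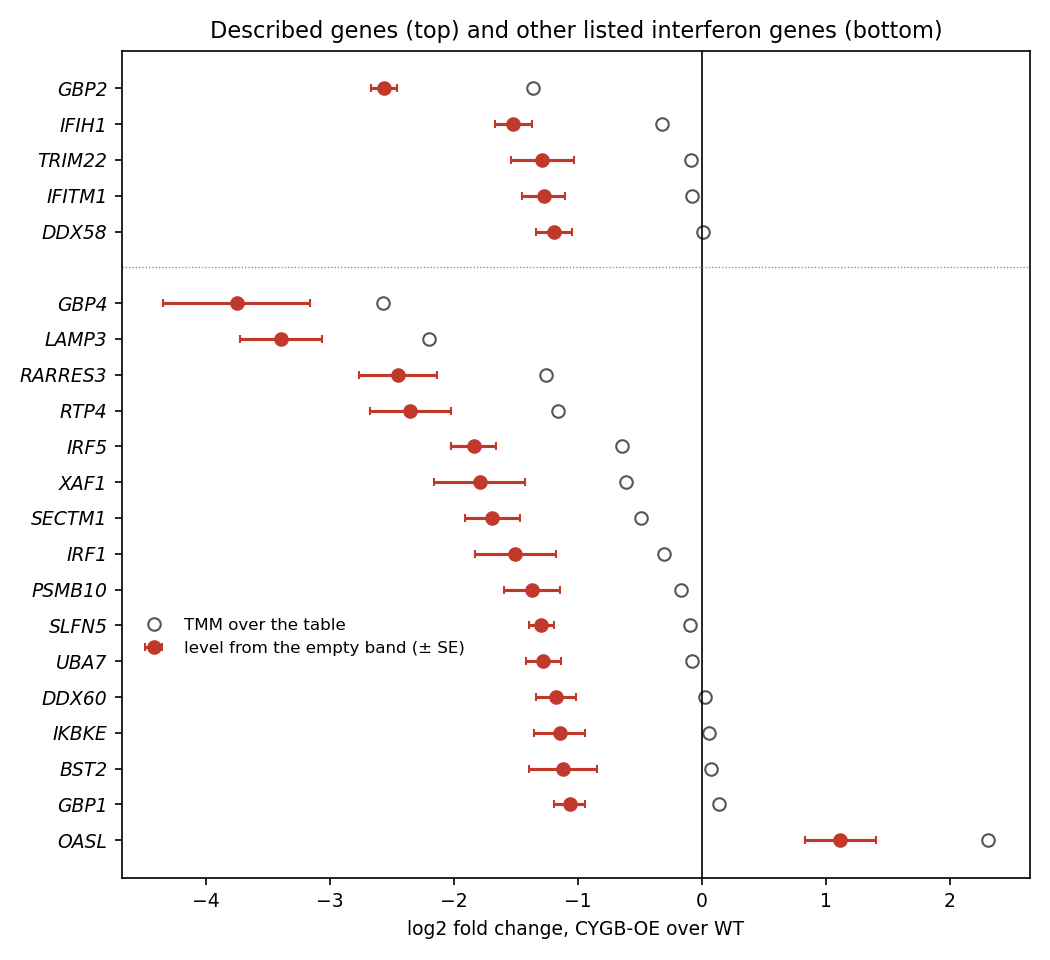
Log2 fold changes, CYGB-OE over WT, of the 5 genes (above the dotted line) and of the 16 other listed interferon genes that were tested (below it); filled red points with bars give the estimate ± SE with the level from the empty band, and open circles the estimate under TMM over the table. With the band's level all genes but OASL lie below 0; under TMM, GBP2 at -1.36 stays well below 0 and DDX58 lies at 0.01.

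The table also held genes that lie near the 5. Within 500 kilobases of them it listed 11 protein-coding neighbours, of which 10 were tested, 9 fell and 1 rose, against 70.9% lower and 28.9% higher over all tested features. The 9 include GBP1 and GBP4, already counted above among the other interferon genes. These windows held 6, 8, 45, 36 and 13 protein-coding neighbours of IFIH1, DDX58, TRIM22, IFITM1 and GBP2, and most were not in the table. ANO9, an anoctamin near IFITM1, fell furthest, with 14, 0 and 1 counts in CYGB-OE replicates 1 to 3 and 131, 206 and 160 in WT replicates 1 to 3. PANO1, also near IFITM1, was the 1 that rose, with 32, 24 and 22 counts in CYGB-OE and 14, 6 and 11 in WT, and its call was lost when adjusted over all annotated genes (edgeR adjusted p = 0.272). IFIH1 lies head to head with GCA, the gene of grancalcin, a calcium-binding protein, whose annotated start lies 137 bases away. GCA had 111, 117 and 139 counts in CYGB-OE replicates 1 to 3 and 230, 330 and 227 in WT replicates 1 to 3 (log2 fold change -1.01, SE 0.15). ACO1, a cytoplasmic aconitase that also regulates iron, lies tail to tail with DDX58, 936 bases away. It had a log2 fold change of -1.27 (SE 0.13), against -1.19 for DDX58 and a median of -1.29 over all tested features. With TMM scaling GCA lay at 0.19, ACO1 at -0.07 and DDX58 at 0.01.

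The genes whose profile over the 6 libraries lay nearest were sought among 1065 tested features with a gene name and a mean of at least 100 normalized counts, by Euclidean distance of log2 values from the WT mean. For DDX58 these were GXYLT2, PLA2R1 and DDX60, at distances of 0.056, 0.076 and 0.117 log2 units, and DDX60 was the 1 interferon gene among the 15 found. For IFIH1 they were DSC2, SLC25A37 and CHST11, at 0.182 to 0.213, and for GBP2 RASAL1, SLC24A3 and IGFBP7, at 0.15 to 0.272. TRIM22 lay nearest to DNMT3A, AMACR and GRIK2, and IFITM1 to ARHGAP45, AC098614.1 and NR2F1-AS1. The minimum of 100 kept interferon genes with low counts, such as GBP4 and LAMP3, out of this search. Of the tested features, 56.1% had a lower log2 fold change than DDX58 and 57.0% a lower one than DDX60. Both thus lay near the middle of the table, and their match shows nothing particular to interferon genes. Among the 5 genes, DDX58 and TRIM22 were closest, at 0.386, while GBP2 lay 1.81 to 2.38 from the others.

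Of the 11 other interferon genes with a matched promoter window, 7 held the ISRE core (GBP1, GBP4, PSMB10, SECTM1, BST2, DDX60 and RTP4), 3 the GAS core (BST2, DDX60 and IRF1) and 1 the form with a spacer of 3 (IKBKE), beside the shares of all promoters given above. IRF5 and XAF1 held none of these letters in the window.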

How the data were processed

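RNA of 3 CYGB-OE and 3 WT libraries was analysed. Per the labels' protocols, poly(A) RNA was captured and cDNA was primed with random hexamers; whether the library kept the strand is not given. The genome build GRCh38 and the tools STAR 2.5.2b, Subread 1.5.2, featureCounts and Trimmomatic 0.36 are named, with no role or order, per the submitters' processing notes. The authors deposited raw counts per gene, per the file headers, for a selection of features; the sources used here do not give the rule of that selection. Of 2615 Ensembl identifiers, 2611 were found in GENCODE release 29, whose coordinates were used.

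Features were filtered with edgeR's filterByExpr (minimum count 10, on column totals) and tested with edgeR 4.0.16 in R 4.3.3 (quasi-likelihood F test, robust, two-sided, group as the only term, Benjamini-Hochberg adjustment over 2468 features, threshold 0.05). TMM factors came from each group separately, and the groups were set against each other by the middle of the empty band of log2 ratios. Each standard error is the absolute log2 fold change over the root of F. Ratios between genes were tested by exact permutation. Profile distances used log2(normalized count + 1).

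Alternatives were other scalings, no filter, DESeq2 1.42.0, limma-voom (limma 3.58.1), the replicate number as a block, adjustment over all annotated genes and leaving out each library. The genes, the lists and the scaling were chosen with earlier results of these data known. The genes named are the 5 genes, listed interferon and marker genes in the table, CYGB, and the 3 features nearest to each of the 5; the neighbours GCA, ACO1, ANO9 and PANO1 were named after their values were seen.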

Additional observations from a re-analysis of the deposited data

How the results depend on the processing

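Scaling over the whole table changed the calls; the log2 fold changes of all features shift together under it. With TMM, DESeq2 size factors and upper-quartile factors in turn, 480, 476 and 910 features were lower, as were 1, 1 and 2 of the 5 genes and 5, 5 and 8 of the other interferon genes. The log2 fold change was 0.0098 and 0.019 for DDX58, -0.32 and -0.31 for IFIH1, -0.090 and -0.080 for TRIM22 and -0.076 and -0.069 for IFITM1 with TMM and DESeq2 size factors, and -0.32, -0.42 and -0.41 for DDX58, TRIM22 and IFITM1 with upper-quartile factors. GBP1 (0.14 and 0.14), DDX60 (0.025 and 0.034), IKBKE (0.057 and 0.068) and BST2 (0.076 and 0.078) also turned above 0 with TMM and DESeq2 size factors. Against 71.0% of calls with the band's level, lower features were 40.2%, 40.0% and 56.0% of calls under these 3 scalings.

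The 5 genes stayed lower past the threshold with total counts, no filter, DESeq2's test, limma-voom and adjustment over all annotated genes. These 5 settings called 1711, 1959, 1754, 1746 and 1340 features lower, in that order, which were 70.6% to 73.7% of their calls. The 5 calls also held without any 1 library. All of these fits but that with total counts kept the band's level, so they do not bear on that choice. The kept calls show nothing particular to these genes. Leaving out 1 library gave 1761 to 1840 lower and 708 to 751 higher features, and 15 to 16 lower interferon genes. It gave log2 fold changes of -1.66 to -1.45 for IFIH1, -1.28 to -1.12 for DDX58, -1.45 to -1.13 for TRIM22, -1.38 to -1.19 for IFITM1 and -2.63 to -2.52 for GBP2. Deviations from the group means of same-numbered libraries correlated at -0.0106, -0.0837 and 0.0155, and those of differently numbered libraries at -0.0584 to 0.0721. With 3 libraries per group these values cannot decide whether the replicate numbers pair the libraries. With the replicate block 712 features were higher and 1750 lower, and all 5 genes stayed lower (GBP2 -2.56, IFIH1 -1.53, DDX58 -1.20, IFITM1 -1.27, TRIM22 -1.29). TRIM22, with 22 to 37 counts in CYGB-OE, is limited most by depth, and library depths are unknown.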
